A study of Homo sapiens with 16 samples.

Results

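A set of 10 genes of the miRNA silencing machinery were followed through 16 sequencing libraries of glioblastoma cells. They are the Argonaute genes EIF2C1, EIF2C2, EIF2C3 and EIF2C4 (now named AGO1 to AGO4), the GW182 genes TNRC6A, TNRC6B and TNRC6C, and the miRNA biogenesis genes DICER1, DGCR8 and XPO5. They were chosen by symbol, and all 10 members had a row among the 20314 genes of the U251 tables and the 20626 genes of the U343 tables. U251 and U343 are established human glioblastoma cell lines, each of which was reverse transfected in culture dishes with a miR-137 mimic or with a control mimic, both at 25 nM. RNASeq measured total RNA harvested after 48 h, and RIPSeq measured the RNA recovered with antibodies to the poly(A) binding protein PABP from extracts of cells transfected in the same way. The 8 groups formed by cell line, assay and mimic held 2 libraries each. All libraries were depleted of ribosomal RNA, and the U251 cDNA was made with random hexamers whereas the U343 cDNA came from the TotalScript kit, so cell line and cDNA preparation cannot be told apart.

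A mature miRNA acts as a guide inside an Argonaute protein and pairs through its seed with target mRNAs. The Argonaute protein binds a TNRC6 (GW182) scaffold, which contacts PABP and recruits the deadenylases that shorten the poly(A) tail of the target. Cellular miRNAs reach Argonaute through cleavage of the primary transcript by the Microprocessor (DROSHA with DGCR8), export of the hairpin by Exportin-5 (XPO5) and a second cleavage by Dicer (DICER1). A transfected mimic is a short duplex that resembles the Dicer product, so it enters this route at the loading of Argonaute. miR-137 is abundant in neurons and is known for its low level in gliomas.

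The mature miR-137-3p that the mimic represents is printed here because its seed defines the sites through which it pairs with targets. The sequence is that of RefSeq on GRCh38.p14, at chr1:98046091-98046113 on the minus strand, and the capitals mark the seed, bases 2 to 8 counted from the 5′ end.
hsa-miR-137-3p: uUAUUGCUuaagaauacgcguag
A target site that pairs with the whole seed would read AGCAAUA in the mRNA. The transcripts of the 10 genes were not searched for it here.

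Positions are those of the deposited hg18 tables and span each gene from end to end, exons, introns and UTRs together. EIF2C4, EIF2C1 and EIF2C3 lie next to each other on the same strand of chromosome 1, within 248236 bases, EIF2C4 at 36046415 to 36093775, EIF2C1 at 36121397 to 36162486 and EIF2C3 at 36169359 to 36294650. The gap between EIF2C4 and EIF2C1 is 27621 bases and that between EIF2C1 and EIF2C3 is 6872 bases. EIF2C2 lies apart, on chromosome 8 at 141610446 to 141714828. The TNRC6 genes are on separate chromosomes, TNRC6A on 16 (24648550 to 24745048), TNRC6B on 22 (38770767 to 39061758) and TNRC6C on 17 (73511913 to 73616511). DICER1 is on chromosome 14 (94622318 to 94693512), DGCR8 on 22 (18447834 to 18479400) and XPO5 on 6 (43598047 to 43651790). XPO5 overlaps POLR1C on the opposite strand by 7046 bases, and reads of these genes may not be fully separated because the use of strand in the counting is not given in the sources used here. DGCR8 overlaps TRMT2A by 3 bases.

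Depth was 10156675 to 18224061 counted reads per library in U251 RNASeq, 22359794 to 30731476 in U251 RIPSeq, 37952273 to 45134766 in U343 RNASeq and 37736206 to 45055184 in U343 RIPSeq. The members together took 0.0371% to 0.132% of the reads of a library. Levels are given as CPM, counts scaled to a common total, with library totals scaled by TMM factors. Of the glial and glioma markers, VIM, NES, CD44, EGFR, SOX2 and SOX9 were present in every RNASeq library, OLIG2 was at or near 0 in these libraries (highest 0.116 CPM, here and for the other markers without TMM factors), and GFAP was at 3.64 to 29.5 CPM in U251 against 3281 to 4778 CPM in U343. The summed level of the 9 glial and glioma markers was lower after miR-137 in U251, at 11563 to 11592 CPM in the RNASeq controls against 6700 to 7103 CPM and at 11820 to 14504 CPM in the RIPSeq controls against 8606 to 8610 CPM. Of 12 measured markers of other cell types, HBB was at 0 in all RNASeq libraries, and the summed level of the 12 was 9.53 to 10.4 CPM in the U251 RNASeq controls, 91.5 to 98.5 CPM in the U251 RNASeq miR-137 libraries and 568 to 1588 CPM in U343 over both assays. KRT5 alone reached 850 to 1447 CPM in U343 RNASeq. CDH1 was at 62.7 to 125 CPM there, VWF at 7.79 to 29.4 CPM and CDH5 at 8.80 to 27.6 CPM. CD68 was at 3.64 to 33.4 CPM and SYP at 0.991 to 14.1 CPM in the same libraries. In U251 RNASeq, CD68, a macrophage and lysosome marker, ranged from 7.05 to 93.9 CPM. The part of these markers in the results was not tested. Replicates of 2 groups stood apart from each other. In U251 RIPSeq the chi-square between the control libraries averaged 216 over genes, where counting error alone gives about 1, and in U343 RNASeq that between the miR-137 libraries averaged 175. The other groups had values between 2.46 and 21.9. For the member comparisons that rest on these 2 groups, results without a library of the pair are given, though not for every member. The pathway list counts use all libraries. The labels do not say whether replicates were separate cultures, so p-values measure only the spread between these libraries, which may be technical. In bulk libraries, fewer cells of a type and less RNA per cell cannot be told apart.

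For the levels in all groups, CPM on a single TMM scale over the 16 libraries was used. EIF2C1 stood at 251.2 ± 17.4 CPM (SD, n = 2) in the U251 RNASeq control, at 114 ± 30.9 in the U251 RIPSeq control and at 33.5 ± 1.48 in the U343 RIPSeq miR-137 group, a 7.51-fold range. Of its 7 pairs of neighbouring groups in the order of levels, 1 overlapped, the controls of U343 RNASeq and RIPSeq. EIF2C3 spanned 7.78-fold, from 137 ± 6.03 CPM in the U251 RNASeq control to 17.6 ± 1.75 in the U343 RIPSeq control, and its 4 U343 groups overlapped one after the other. EIF2C2 spanned 6.58-fold, from 90.8 ± 19.9 CPM in the U251 RIPSeq control to 13.8 ± 0.639 in the U343 RIPSeq miR-137 group. All 4 U251 groups of EIF2C1, EIF2C2 and EIF2C3 had means above the U343 group of the same assay and mimic. EIF2C4 stood at 19.1 ± 1.38 CPM at the highest, in the U251 RNASeq miR-137 group, and 5.57 ± 1.15 at the lowest, in the U343 RNASeq miR-137 group. DICER1 had the widest relative range of the 10 members, 8.94-fold. It stood at 262 ± 3.00 CPM in the U251 RNASeq control, at 114 ± 1.46 in the U343 RNASeq control and at 29.3 ± 2.86 in the U343 RIPSeq miR-137 group. DGCR8 lay at the other end, with 33.6 ± 2.03 to 47.2 ± 1.41 CPM, a 1.41-fold range in which all 7 neighbouring pairs overlapped. TNRC6A spanned 2.21-fold, XPO5 2.10-fold, TNRC6C 2.45-fold, TNRC6B 3.28-fold and EIF2C4 3.43-fold. Levels are not compared between genes, since no transcript lengths were used.

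**Figure D1:**
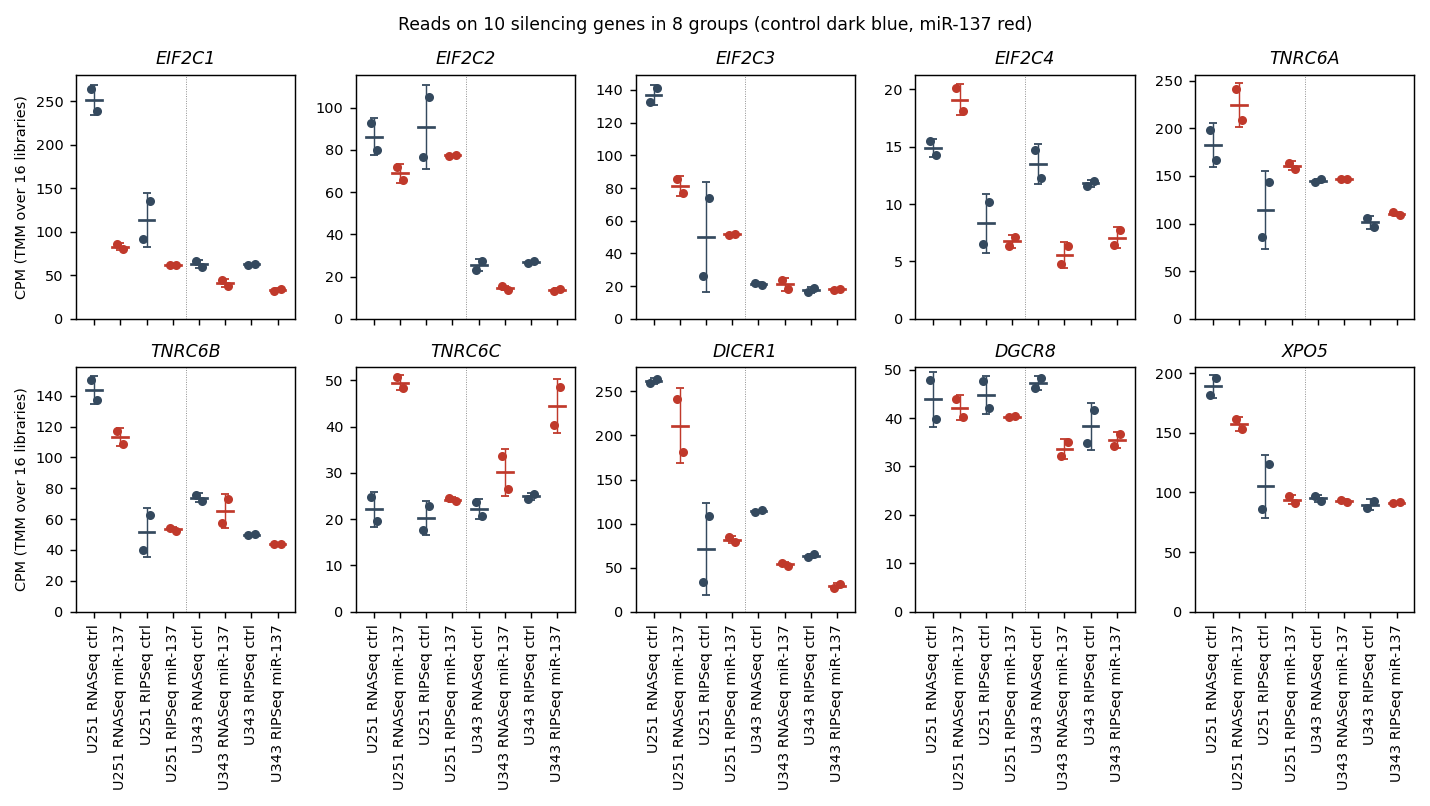
Level of each of the 10 genes in CPM (TMM scale over 16 libraries) in the 8 groups; each point is a library, lines are means and bars are SD (n = 2), with control groups in dark blue and miR-137 groups in red. EIF2C1 dropped from 251.2 to 82.8 CPM in U251 RNASeq and DICER1 from 114 to 53.9 CPM in U343 RNASeq, and the U251 RIPSeq controls spread widely, with DICER1 at 71.2 ± 52.5 CPM.

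In total RNA of U251, the miR-137 mimic was accompanied by a large fall of EIF2C1, a smaller fall of EIF2C3 and a rise of TNRC6C, with EIF2C4 slightly higher. All 10 members passed the filter on low counts in every comparison. Of these, 2 were lower and 2 higher by edgeR's quasi-likelihood test at an adjusted p under 0.05. In this comparison 57.7% of the 13052 genes tested were called, 29.0% lower and 28.7% higher, so the share of members called is near that of all genes. The median log2 fold change was −0.25 over the members and 0.02 over all genes. CPM values from here on are scaled within each comparison.

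EIF2C1 had 275 and 248 CPM in the controls and 92.9 and 84.4 CPM in the miR-137 libraries of U251 RNASeq. Both miR-137 libraries lay far below both controls, and the difference was −1.56 ± 0.13 on the log2 scale (SE; adjusted p = 5.59e-07), 2.95-fold lower. EIF2C3, its neighbour on chromosome 1, had 139 and 147 CPM against 92.5 and 81.1 CPM. The groups did not overlap, and the log2 fold change was −0.72 ± 0.13 (adjusted p = 0.000347). EIF2C4, at the other end of the same cluster, moved the opposite way, from 16.2 and 14.9 CPM to 21.7 and 19.2 CPM. Its log2 fold change of 0.40 ± 0.15 had an adjusted p of 0.0391, the weakest of the calls, and the call was lost with DESeq2 (adjusted p = 0.12), without the filter on low counts (0.0981) and in 3 of 4 fits that left out a library. EIF2C2, the Argonaute with the efficient slicing activity, had 96.6 and 83.1 CPM against 78.1 and 69.2 CPM. The groups did not overlap but the difference of −0.29 ± 0.13 did not pass the test (adjusted p = 0.0821).

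TNRC6C, a GW182 scaffold, went from 25.9 and 20.2 CPM to 54.8 and 51.1 CPM. Both miR-137 libraries had more than any control, and the log2 fold change of 1.20 ± 0.15 (adjusted p = 1.74e-05) was the largest rise among the members in this experiment. Its paralogs moved less and in opposite directions: TNRC6A had a log2 fold change of 0.34 ± 0.14 (adjusted p = 0.0569) and TNRC6B one of −0.31 ± 0.13 (adjusted p = 0.0535), neither of which passed the test. Of the biogenesis genes none was called. DICER1 had 272 and 274 CPM in the controls against 261 and 191 CPM in the miR-137 libraries. The miR-137 libraries thus differed from each other by more than the first of them did from the controls (log2 fold change −0.27 ± 0.15, adjusted p = 0.142). DGCR8 (log2 fold change −0.02 ± 0.14) and XPO5 (−0.23 ± 0.13) had adjusted p of 0.917 and 0.140. Without the first miR-137 library EIF2C2 was at −0.37, TNRC6B at −0.37 and DICER1 at −0.50, and without the second TNRC6A was at 0.45. These fits keep a lone miR-137 library, so their calls are not given here. With upper-quartile normalization the median of all genes moved from 0.02 to 0.16 and the calls over all genes from 3780 lower and 3749 higher to 3001 lower and 4588 higher; of the members, TNRC6A then passed as higher (log2 fold change 0.48, adjusted p = 0.0122) and the value of DGCR8 turned to 0.12.

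In PABP-bound RNA of U251, edgeR called 0 of the 10 members. At an unadjusted p under 0.05 there was 1, EIF2C1, beside 2828 of 14087 genes, and DESeq2 also called 0 members. Over all genes 1.21% were called, 0.263% lower and 0.944% higher. EIF2C1 had 101 and 129 CPM in the controls and 59.7 and 60.1 CPM after miR-137. The miR-137 libraries agreed closely and lay below both controls, with a log2 fold change of −0.94 ± 0.25 (edgeR adjusted p = 0.156). The spread between the controls was carried by several members at once. DICER1 had 37.6 CPM in the first control and 103 CPM in the second, with 81.8 and 77.3 CPM after miR-137 between them. EIF2C3 showed the same order, with 29.2 and 70.4 CPM in the controls around 50.0 and 50.7 CPM. TNRC6B lay at 44.2 and 59.6 CPM against 52.8 and 51.2 CPM. TNRC6A was higher after miR-137 than in either control (94.8 and 137 CPM against 159 and 154 CPM) with a log2 fold change of 0.43 ± 0.28 (adjusted p = 0.455). TNRC6C did not differ detectably, at 19.4 and 21.7 CPM against 23.8 and 23.2 CPM (log2 fold change 0.19 ± 0.24, adjusted p = 0.701).

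Which control was used decided the direction of several members in U251 RIPSeq. Without the first control library 7 members were lower and 1 higher, and without the second 2 were lower and 5 higher; over all genes these fits called 5052 lower and 4689 higher, and 5366 lower and 6304 higher. DICER1 was at −0.38 on the log2 scale without the first control and at 1.17 without the second, and EIF2C3 at −0.49 and 0.88. EIF2C1 kept its direction, at −1.11 and −0.67. These fits assume that the lone control varies like the closely matching miR-137 libraries.

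In total RNA of U343, members of the Argonaute and biogenesis groups fell after miR-137 and no member rose past the test. EIF2C1, EIF2C2, EIF2C4, DICER1 and DGCR8 were called lower, 5 of 10, beside 11.7% of all 15088 genes tested called lower and 20.0% called in either direction. The median log2 fold change of the members was −0.35, against 0.02 for all genes. EIF2C4 had 14.9 and 12.4 CPM in the controls and 4.65 and 6.53 CPM after miR-137. Both miR-137 libraries lay far below both controls, and the log2 fold change was −1.29 ± 0.23 (adjusted p = 0.0279), opposite in sign to that in U251 RNASeq. EIF2C2 dropped from 23.5 and 27.6 CPM to 15.1 and 14.2 CPM, a log2 fold change of −0.80 ± 0.13 (adjusted p = 0.0244). EIF2C1 went from 67.2 and 60.0 CPM to 43.6 and 38.5 CPM. Its groups were apart, with a log2 fold change of −0.63 ± 0.12 (adjusted p = 0.0307). EIF2C3, by contrast, had 22.3 and 20.7 CPM against 23.4 and 18.7 CPM, and the libraries of the groups interleaved (log2 fold change −0.03 ± 0.15, adjusted p = 0.897).

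DICER1 had 115 and 117 CPM in the U343 RNASeq controls and 54.7 and 53.3 CPM after miR-137. The libraries of each group nearly coincided, and the log2 fold change of −1.10 ± 0.09 (2.14-fold lower, adjusted p = 0.00724) had the smallest p of the members in this experiment. DGCR8, the RNA-binding partner of DROSHA, went from 46.7 and 48.8 CPM to 31.5 and 35.8 CPM (log2 fold change −0.50 ± 0.11, adjusted p = 0.0425). XPO5 was at 97.9 and 94.3 CPM against 92.0 and 94.4 CPM (log2 fold change −0.04 ± 0.09, adjusted p = 0.754). Among the TNRC6 genes, TNRC6C had 24.0 and 20.9 CPM against 33.0 and 27.1 CPM. Both miR-137 libraries were above both controls, but the log2 fold change of 0.42 ± 0.15 did not pass (adjusted p = 0.123). TNRC6A was at 145 and 148 CPM against 144 and 150 CPM, and TNRC6B at 76.6 and 72.7 CPM against 56.1 and 74.7 CPM. Over the fits that left out a library, EIF2C1 ranged from −0.73 to −0.54, EIF2C2 from −0.91 to −0.68 and EIF2C4 from −1.56 to −1.08. DICER1 ranged from −1.13 to −1.08 and DGCR8 from −0.60 to −0.42. Without the second of the divergent miR-137 libraries TNRC6B was at −0.41 and TNRC6C at 0.56. Calls rose over all genes in the fits without a miR-137 library, so member calls of those fits are not given here. Fits without the first or the second control library took the spread from the miR-137 pair. Calls were lost over all genes in these fits, those of the 5 members among them. In these fits EIF2C1 was at −0.54 and −0.71, EIF2C2 at −0.91 and −0.68 and EIF2C4 at −1.14 and −1.41. DICER1 was at −1.11 and −1.09 and DGCR8 at −0.53 and −0.47. DESeq2 on all 4 libraries called the same number of members as edgeR, 5 lower and 0 higher.

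In PABP-bound RNA of U343, where replicates were close, EIF2C1, EIF2C2, EIF2C4 and DICER1 were lower and TNRC6C was higher after miR-137. Of all 14866 genes tested 56.3% were called, 27.8% lower and 28.5% higher, so a count of 5 of 10 members is near the background. The members' median log2 fold change was −0.14, against 0.00 over all genes. EIF2C2 had 24.0 and 24.8 CPM in the controls and 12.2 and 13.1 CPM after miR-137. Both miR-137 libraries lay far below both controls, with a log2 fold change of −0.94 ± 0.10 (adjusted p = 0.000131). EIF2C1 had 56.6 and 57.2 CPM against 29.7 and 31.8 CPM, a log2 fold change of −0.89 ± 0.08 (adjusted p = 8.55e-05). EIF2C4 had 10.5 and 10.9 CPM against 5.89 and 7.10 CPM (−0.72 ± 0.13, adjusted p = 0.00247). For EIF2C3 the groups overlapped, at 14.9 and 17.2 CPM against 16.3 and 17.1 CPM (0.06 ± 0.11, adjusted p = 0.678).

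DICER1 went from 56.3 and 59.2 CPM to 25.0 and 28.9 CPM in U343 RIPSeq, a log2 fold change of −1.10 ± 0.10 (adjusted p = 6.76e-05) that equals the value in U343 total RNA to the second decimal. TNRC6C rose from 22.1 and 23.2 CPM to 37.0 and 44.7 CPM. The miR-137 libraries lay above both controls, with a log2 fold change of 0.85 ± 0.11 (adjusted p = 0.000454). TNRC6A (0.14 ± 0.08, adjusted p = 0.207) and TNRC6B (−0.18 ± 0.08, adjusted p = 0.0901) did not pass, nor did DGCR8 (−0.09 ± 0.11, adjusted p = 0.492) or XPO5 (0.04 ± 0.08, adjusted p = 0.686). The counts of 4 lower and 1 higher were the same in each fit that left out a library of this experiment.

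**Figure D2:**
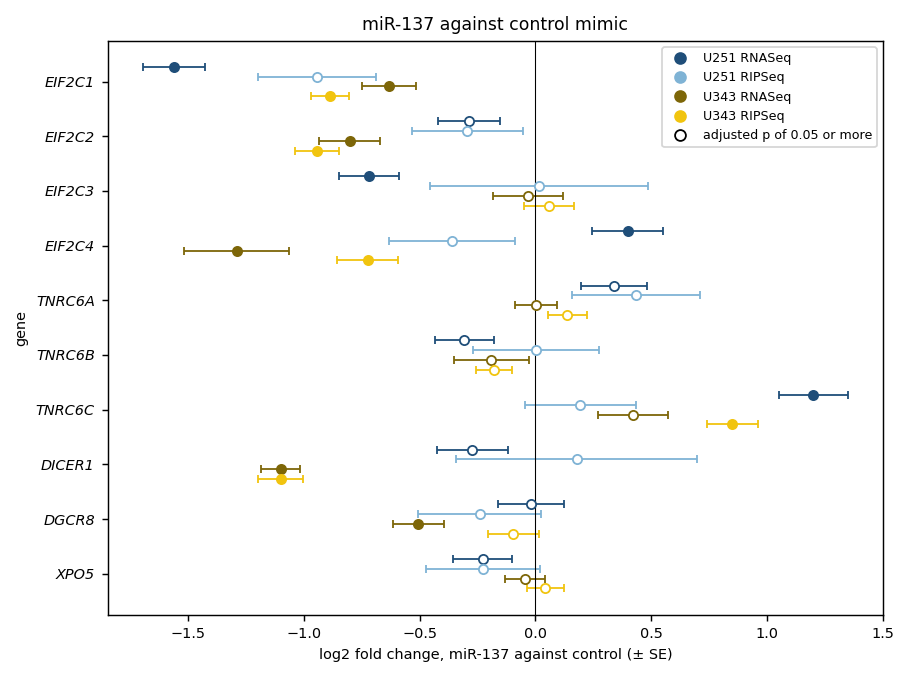
Log2 fold change of each gene, miR-137 against control mimic, with its SE, in the 4 experiments (colours); filled points have an adjusted p under 0.05 in edgeR and open points do not. EIF2C1 lies left of 0 in all 4 experiments (−1.56, −0.94, −0.63 and −0.89), TNRC6C lies right of 0 in all 4 (1.20, 0.19, 0.42 and 0.85), and EIF2C4 lies right of 0 only in U251 RNASeq.

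Whether the response in total RNA differed between the cell lines was tested by the interaction of cell line with transfection over the 8 RNASeq libraries. It was called for 5 members, EIF2C1, EIF2C3, EIF2C4, TNRC6C and DICER1, beside 25.2% of 15550 genes, 12.7% lower and 12.5% higher. The interaction was largest for EIF2C4, −1.70 ± 0.28 on the log2 scale for U343 minus U251 (adjusted p = 0.00458), where the response was a rise in U251 and a fall in U343. EIF2C1 fell less in U343 than in U251, with a difference of 0.92 ± 0.18 (adjusted p = 0.00878). EIF2C3 fell in U251 and was level in U343, with a difference of 0.68 ± 0.20 (adjusted p = 0.0372). DICER1 fell in U343, and its response was lower there than in U251 by −0.84 ± 0.22 (adjusted p = 0.0255). TNRC6C rose less in U343, with a difference of −0.79 ± 0.23 (adjusted p = 0.0354). EIF2C2 (−0.52 ± 0.19, adjusted p = 0.0745) and DGCR8 (−0.49 ± 0.19, adjusted p = 0.0871) did not pass. Without the first of the divergent U343 miR-137 libraries EIF2C2 was at −0.57 and passed. Without the second, DGCR8 was at −0.59 and passed. These fits keep a lone U343 miR-137 library, and calls rose over all genes in them too. EIF2C4 kept its call in all 8 fits that left out a library and EIF2C1 in 7 of 8, but DICER1 and TNRC6C in 3 and EIF2C3 in 2. Cell line, cDNA kit and depth cannot be told apart in this contrast. Over the 8 RIPSeq libraries the same interaction was called for 0 members by edgeR, beside 3.28% of all genes, 1.22% lower and 2.06% higher. At an unadjusted p under 0.05 there were 2 members, beside 3353 of 15959 genes, and DESeq2 called 0 members. The values were −1.24 ± 0.56 for DICER1 (adjusted p = 0.260), 0.71 ± 0.25 for TNRC6C (0.168) and −0.60 ± 0.23 for EIF2C2 (0.198), and the divergent U251 controls enter them. In the fits without the first and without the second of these controls, DICER1 was at −0.70 and −2.16 and TNRC6C at 0.76 and 0.59. EIF2C2 was at −0.51 and −0.76. The calls of these fits rose over all genes as well, so calls are not given here.

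**Figure D3:**
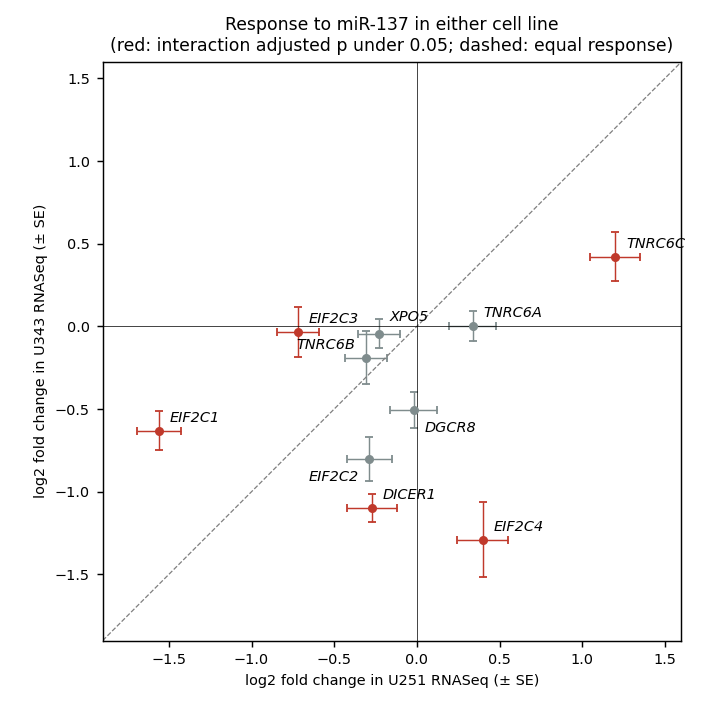
Log2 fold change of each gene after miR-137 in U251 RNASeq (horizontal axis) and in U343 RNASeq (vertical axis), each with its SE; red points are genes whose interaction of cell line and transfection had an adjusted p under 0.05, and the dashed line marks equal responses. EIF2C4 (0.40 and −1.29) and DICER1 (−0.27 and −1.10) lie below the line, and EIF2C1 (−1.56 and −0.63) lies above it.

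Total RNA and PABP-bound RNA were compared to ask whether the response was the same in both. The interaction of assay with transfection was called for 0 members in either line by edgeR, beside 0.134% of genes in U251 (0.0281% lower, 0.106% higher) and 0.00649% in U343, where the single gene called was higher. In U251, 2 members had an unadjusted p under 0.05, beside 2688 of 14210 genes. They were TNRC6C, which rose in total RNA and had a response lower by −1.05 ± 0.28 in PABP-bound RNA (adjusted p = 0.137), and EIF2C4, with −0.80 ± 0.29 (adjusted p = 0.214). DESeq2 called TNRC6C (−1.01, adjusted p = 0.0456). In U343, DGCR8 had an unadjusted p under 0.05, beside 2712 of 15413 genes, with a difference of 0.41 ± 0.16 (adjusted p = 0.263). DESeq2 called 0 members there. The difference for DICER1 in U343 was 0.00 ± 0.13 (adjusted p = 0.998). EIF2C4 (0.57 ± 0.28, adjusted p = 0.342) and TNRC6C (0.43 ± 0.19, adjusted p = 0.306) had the largest positive differences in U343 and EIF2C1 the most negative one (−0.26 ± 0.14, adjusted p = 0.380). Without the first U251 RIPSeq control 2 members were called lower and 1 higher in U251 (1224 and 1664 of all genes), and without the second 1 lower and 4 higher (3922 and 4947 genes). TNRC6C (−1.02 and −0.89) and EIF2C1 (0.51 and 0.84) were called in both of these fits. Without the second U343 RNASeq miR-137 library EIF2C4 was called in U343 (0.81, adjusted p = 0.0351), with 1483 genes lower and 1630 higher, and without the first 0 members were, with 12 and 18 genes. These comparisons share the libraries of the single-assay comparisons above.

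The share of each mRNA with PABP was compared in control cells as RIPSeq against RNASeq, on a TMM scale that makes it relative to the average gene and not a bound fraction. In U343, 5 members were lower in PABP-bound RNA and 0 higher, beside 24.2% of 14878 genes lower, 24.4% higher and 48.6% called in either direction. DICER1 had 111 and 113 CPM in total RNA against 58.7 and 61.7 CPM in PABP-bound RNA. The groups were far apart, with a log2 difference of −0.89 ± 0.07 (adjusted p = 0.000107). TNRC6B (−0.61 ± 0.07, adjusted p = 0.000502) and TNRC6A (−0.56 ± 0.08, adjusted p = 0.00101) were also lower, by like amounts. EIF2C3 (−0.32 ± 0.10, adjusted p = 0.0384) and DGCR8 (−0.35 ± 0.10, adjusted p = 0.0227) passed as lower, each in 1 of 4 fits that left out a library, and EIF2C3 lost its call with DESeq2 (adjusted p = 0.0773). EIF2C1 was at 65.0 and 58.1 CPM against 59.1 and 59.6 CPM, and neither it (−0.05 ± 0.08) nor EIF2C2 (0.04 ± 0.10), TNRC6C (0.12 ± 0.10), EIF2C4 (−0.24 ± 0.12) or XPO5 (−0.13 ± 0.08) passed.

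In U251, TNRC6B was lower in PABP-bound RNA than in total RNA, with 141 and 127 CPM against 45.1 and 57.7 CPM, a log2 difference of −1.38 ± 0.33 (adjusted p = 0.0438). It was the only member called, beside 14.0% of 13242 genes, 6.14% lower and 7.87% higher. DICER1 had a larger difference with a larger spread, 245 and 244 CPM against 38.4 and 99.7 CPM (−1.82 ± 0.50, adjusted p = 0.0561). Both RIPSeq controls lay below both RNASeq controls for DICER1. The same held for EIF2C1 (−1.04 ± 0.32, adjusted p = 0.0711) and EIF2C3 (−1.38 ± 0.46, adjusted p = 0.0822). It also held for TNRC6B, EIF2C4 (−0.73 ± 0.31, adjusted p = 0.138), TNRC6A (−0.58 ± 0.34, 0.259) and XPO5 (−0.74 ± 0.32, 0.145). The groups of EIF2C2, TNRC6C and DGCR8 overlapped. The share of all genes set apart in this way was not counted. DESeq2 called 4 members lower, EIF2C1, EIF2C3, TNRC6B and DICER1. Without the first and without the second of the divergent RIPSeq controls, DICER1 was at −1.29 and −2.76, EIF2C3 at −0.90 and −2.19 and EIF2C1 at −0.90 and −1.27. The calls of these fits rose over all genes as well and are not given here. EIF2C2, TNRC6C and DGCR8 changed sign over the fits that left out a library. Without the first or the second RNASeq control TNRC6B was at −1.42 and −1.57 and lost its call, and calls fell over all genes too.

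**Figure D4:**
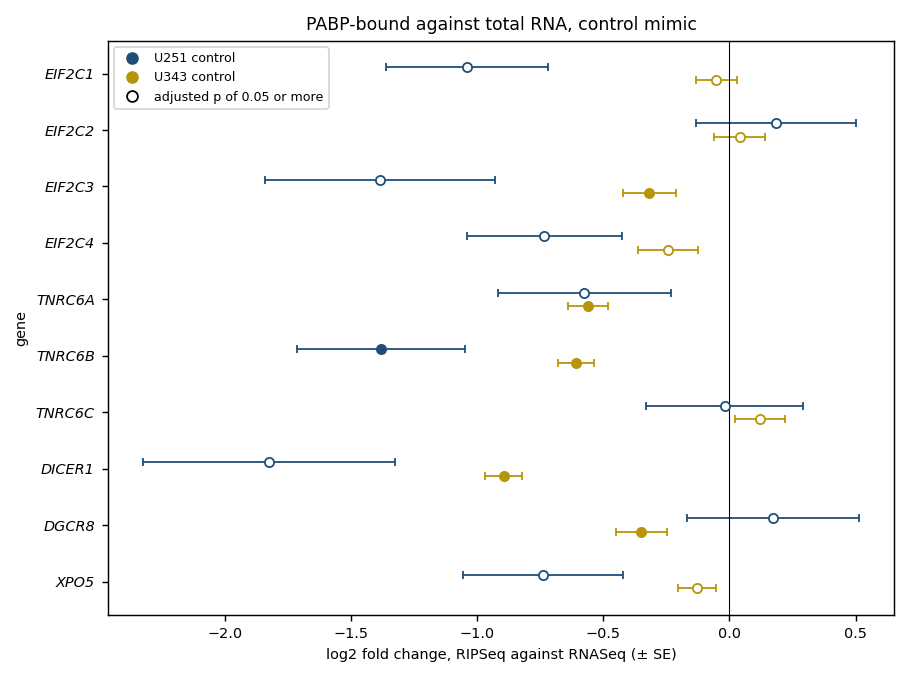
Log2 difference of each gene between PABP-bound RNA (RIPSeq) and total RNA (RNASeq) in control cells, with its SE, for U251 (blue) and U343 (gold); filled points have an adjusted p under 0.05 in edgeR. DICER1 (−1.82 in U251, −0.89 in U343) and TNRC6B (−1.38 and −0.61) lie left of 0 in both lines, and the U251 values have wider errors.

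In control cells, most members stood at a lower CPM in total RNA of U343 than in that of U251. Of 10 members 7 were lower and 0 higher, beside 39.9% of 14787 genes lower and 44.9% higher, 84.8% in all, and the median was −0.96 over the members and 0.10 over all genes. EIF2C3 differed most, with 132 and 139 CPM in U251 and 21.9 and 20.5 CPM in U343, 6.39-fold lower (log2 difference −2.68 ± 0.09, adjusted p = 2.39e-08). EIF2C1 was 3.96-fold lower (−1.99 ± 0.10) and EIF2C2 3.39-fold lower (−1.76 ± 0.12). The fourth Argonaute gene, EIF2C4, overlapped between the lines, at 15.4 and 14.1 CPM against 14.7 and 12.3 CPM (−0.13 ± 0.14, adjusted p = 0.425). DICER1 (−1.18 ± 0.09), XPO5 (−0.98 ± 0.09) and TNRC6B (−0.95 ± 0.09) were lower, and TNRC6A passed with −0.32 ± 0.11 (adjusted p = 0.0194), a call lost with upper-quartile normalization (adjusted p = 0.0878) and in 3 of 4 fits without a library. TNRC6C (0.02 ± 0.14, adjusted p = 0.923) and DGCR8 (0.12 ± 0.11, adjusted p = 0.346) did not pass. Cell line and cDNA kit cannot be told apart here.

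The rule used by the study, which compares the reads of each control library with those of each miR-137 library by Fisher's exact test and requires each of the 4 pairs to reach an odds ratio above 2 with adjusted p below 0.001, met few members. EIF2C1 was lower in U251 RNASeq, with odds ratios of 2.22 to 2.73, beside 2.21% of 20314 genes called lower. In the same experiment TNRC6C was higher, with control to miR-137 odds ratios of 0.307 to 0.423, beside 6.14% called higher, but it no longer met the rule once library totals were scaled by TMM factors. DICER1 was lower in U343 RNASeq, with odds ratios of 2.11 to 2.28, beside 2.88% of 20626 genes called lower and 1.51% higher. EIF2C4 passed in 3 of the 4 pairs there, with 1.97 to 3.24. No member met the rule in the RIPSeq experiments, in which 1.49% and 3.40% of genes were called lower and 3.47% and 4.83% higher in U251 and U343, although EIF2C2 and DICER1 in U343 each passed in 2 pairs for a fall and TNRC6C in 2 pairs for a rise, and DICER1 in U251 in 2 pairs for a rise. The rule does not model replicate spread, which enters only through the need for all 4 pairs to pass.

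Other genes of the pathway were taken from 6 lists of 55 genes, of which 54 had a row in at least 1 cell line's tables. In U251 RNASeq 18 of 46 tested were lower and 8 higher, beside 29.0% and 28.7% of all genes. In U251 RIPSeq 0 of 47 were called in either direction, beside 1.21%. In U343 RNASeq 9 were lower and 3 higher of 51, beside 11.7% and 8.31%, and in U343 RIPSeq 18 were lower and 15 higher of 51, beside 27.8% and 28.5%. The Microprocessor list had 3 lower and 1 higher of 9 in U251 RNASeq, 3 and 0 of 10 in U343 RNASeq and 4 and 1 of 10 in U343 RIPSeq. The short list of export factors and Dicer partners had 3 lower of 3, then 0 of 4 in either direction, then 1 and 1 of 4. Of the 9 chaperones and passenger strand factors 6 were lower and 1 higher in U251 RNASeq, 4 were lower in U343 RNASeq and 6 in U343 RIPSeq, with medians of −0.68, −0.49 and −0.41 against 0.02, 0.02 and 0.00 for all genes. In U251 RIPSeq 0 of the 9 were called, and the median was 0.03 against −0.02. Its most changed gene was TSN, which with TSNAX forms the C3PO nuclease known to remove passenger strands. TSN had 181 and 210 CPM in the controls and 56.5 and 60.4 CPM after miR-137 in U251 RNASeq, −1.74 ± 0.14 on the log2 scale (adjusted p = 2.41e-07). It fell in U343 RNASeq and RIPSeq too (−1.26 ± 0.10 and −1.26 ± 0.08). TSNAX was called lower as well in U251 RNASeq, U343 RNASeq and U343 RIPSeq (−0.70 ± 0.13, −0.76 ± 0.09 and −0.72 ± 0.09). FKBP5 and FKBP4, which encode co-chaperones of HSP90, were called lower in the same experiments. The values were −0.90 ± 0.29, −0.97 ± 0.13 and −0.41 ± 0.11 for FKBP5, whose level in U251 RNASeq was low (4.11 against 2.19 CPM). For FKBP4 they were −0.75 ± 0.12, −0.56 ± 0.13 (adjusted p = 0.0472) and −0.73 ± 0.09.

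The list of Argonaute partners and P-body proteins moved both ways, with 5 lower and 3 higher of 18 in U251 RNASeq, 2 and 3 in U343 RNASeq and 6 and 8 in U343 RIPSeq. DCP2, the decapping enzyme, fell in U251 RNASeq (−1.05 ± 0.12, adjusted p = 1.04e-05). It was also lower in U343 RNASeq (−0.54 ± 0.10, adjusted p = 0.0307) and in U343 RIPSeq (−0.98 ± 0.09, adjusted p = 9.80e-05). JUB, a LIM protein, had 143 and 139 CPM against 52.5 and 52.9 CPM in U251 RNASeq (−1.42 ± 0.13). It was not called in U343 RNASeq (−0.15 ± 0.10, adjusted p = 0.332) or U343 RIPSeq (0.16 ± 0.10, adjusted p = 0.220). LIMD1, of the same family, was not called in U251 RNASeq (−0.13 ± 0.15, adjusted p = 0.451). It rose in U343 RIPSeq (1.04 ± 0.11, adjusted p = 0.000134) and in U343 RNASeq (1.23 ± 0.16, adjusted p = 0.0158). In U343 RNASeq DCP1B, a decapping cofactor, and SND1, a nuclease of Tudor type, were also called higher, at 0.65 ± 0.14 (adjusted p = 0.0424) and 0.40 ± 0.09 (adjusted p = 0.0498). Without the filter on low counts both calls were lost (DCP1B adjusted p = 0.0560, SND1 0.0752). SND1 also lost its call with upper-quartile normalization (0.0547). Without the first or the second control library of U343 RNASeq, calls were lost over all genes. Those of DCP1B, SND1, LIMD1, DCP2, TSN, TSNAX, FKBP5 and FKBP4 were among them. MOV10, a helicase that binds Argonaute, rose from 37.4 and 37.8 CPM to 129 and 119 CPM in U251 RNASeq (1.72 ± 0.13, adjusted p = 1.74e-07). It rose by a like size in U343 RIPSeq (1.75 ± 0.09, adjusted p = 5.27e-06). PATL1, a decapping activator, rose in U251 RNASeq (1.35 ± 0.13) and in U343 RIPSeq (1.11 ± 0.08, adjusted p = 2.46e-05). In U343 RNASeq PATL1 had 31.9 and 32.7 CPM in the controls and 28.1 and 68.0 CPM after miR-137. It was not called there (0.57 ± 0.43, adjusted p = 0.392).

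The tailing and turnover list had 1 lower and 3 higher of 7 in U251 RNASeq, 0 of 8 in either direction in U343 RNASeq and 1 and 4 of 8 in U343 RIPSeq. Among its genes, PNPT1, the polynucleotide phosphorylase, had 125 and 133 CPM in the controls and 305 and 319 CPM after miR-137 in U251 RNASeq (1.28 ± 0.13). In U343 RIPSeq it went from 62.0 and 61.8 CPM to 576 and 454 CPM, 8.31-fold (3.06 ± 0.13, adjusted p = 3.18e-06). ADAR, a Dicer partner that edits double-stranded RNA, had a row only in the U343 tables and rose from 267 and 262 CPM to 1104 and 1102 CPM in U343 RIPSeq (2.06 ± 0.11). MOV10, PNPT1 and ADAR are also known as genes induced by interferon. These genes told the divergent U343 RNASeq miR-137 libraries apart. PNPT1 had 57.7 CPM in the first and 500 CPM in the second, beside 52.6 and 54.7 CPM in the controls. ADAR had 385 and 1486 CPM, beside 365 and 364 CPM, and MOV10 had 128 and 305 CPM, beside 137 and 130 CPM. The first miR-137 library thus lay near the controls for these 3 genes and the second far above, and none of them passed the test in this experiment (adjusted p of 0.172, 0.207 and 0.302). For DICER1, EIF2C1, EIF2C2 and TSN both libraries lay below both controls. The PIWI list, germline relatives of Argonaute, had 0 to 2 genes tested, of which PIWIL2, named after its value was seen, was higher in U343 RIPSeq (0.70).

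**Figure D5:**
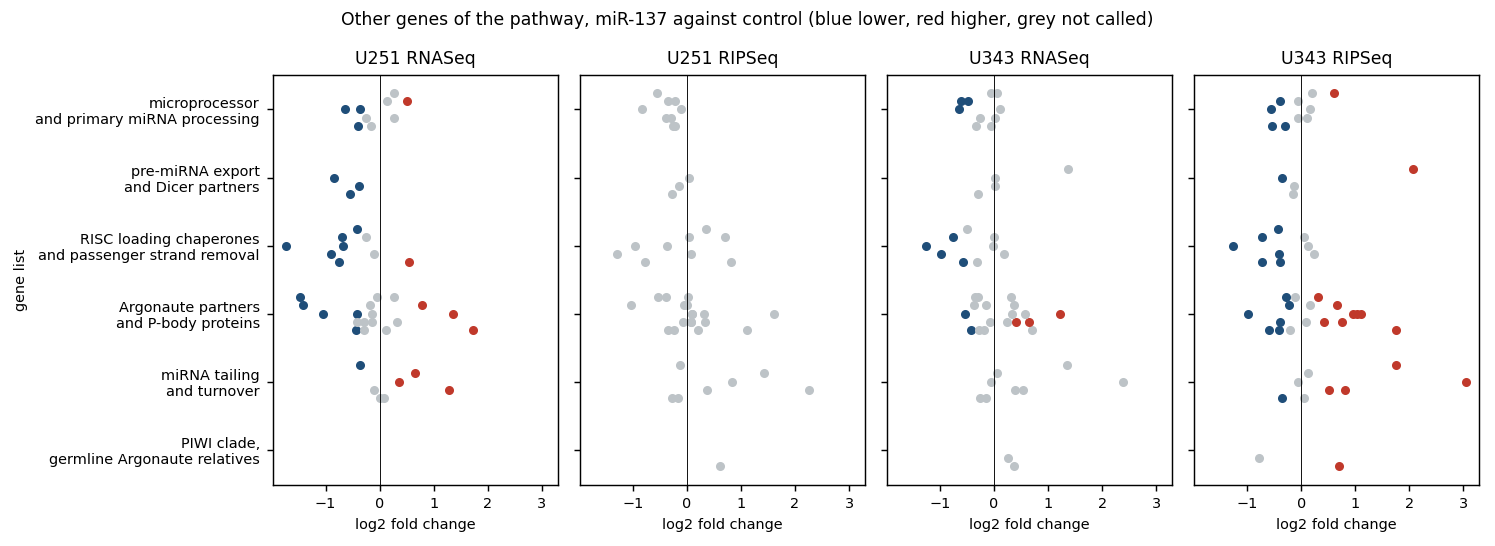
Log2 fold change after miR-137 of the tested genes of 6 pathway lists (rows) in the 4 experiments (panels); each point is a gene, blue when called lower, red when called higher and grey when not called by edgeR at an adjusted p under 0.05. TSN is the leftmost point of the chaperone and passenger strand list at −1.74, −1.26 and −1.26 in U251 RNASeq, U343 RNASeq and U343 RIPSeq, and PNPT1 is the rightmost point in U343 RIPSeq at 3.06.

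Genes whose pattern was most like a member were sought by Pearson's r of log2(CPM + 1) over the 16 libraries after subtraction of the mean of each experiment, among 11077 genes. The libraries of an experiment share their processing and depth, so r is a description. The closest were CYTSB for EIF2C1 (0.99), RACGAP1 for EIF2C2 (0.98), PTPLAD1 for EIF2C3 (0.98) and TMEM41A for EIF2C4 (0.96). For the TNRC6 genes they were EGF for TNRC6A (0.98), SRFBP1 for TNRC6B (0.97) and UBN1 for TNRC6C (0.97). CASC5 was closest to DICER1 (0.99), PASK to DGCR8 (0.89) and XK to XPO5 (0.96). Without TMM factors the closest gene was the same for EIF2C1, EIF2C4, TNRC6A and DICER1, and changed to TUBB8 for EIF2C2, ATMIN for EIF2C3, NCOA3 for TNRC6B, OPA3 for TNRC6C, CHTF18 for DGCR8 and PPFIA1 for XPO5. Among the members themselves, on the same scale, EIF2C1 and TNRC6C were the most opposed pair (r = −0.84), and the closest were EIF2C3 with XPO5 (0.87) and EIF2C2 with DICER1 (0.84).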

How the data were processed

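The files hold read counts per RefSeq gene for 16 libraries of U251 and U343 cells. The authors mapped short reads to hg18 with RMAP and deposited whole-number counts over 1 merged transcript per gene; how reads with several matches and strand were handled is not given in the sources used here. A further U251 replicate named in the methods was not analysed here. A gene symbol on 2 lines (SLC35E2) was kept at its first line.

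Counts were tested with edgeR 4.0.16 in R 4.3.3 (TMM factors, its default expression filter, quasi-likelihood test, Benjamini-Hochberg adjustment, threshold 0.05), on the libraries of each comparison alone. The fits covered all genes and were checked on simulated data. Alternatives were DESeq2 1.42.0, upper-quartile normalization, no filter beyond 1 read, the replicate number as a block and leaving out each library. Fisher's exact test (scipy 1.17.1, two-sided) served the rule of the study, mirrored here for rises. Errors of log2 fold changes are SE from the fit, and errors of levels are SD.

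The 10 members and the 6 pathway lists were chosen with earlier results of these data known. All members are described. Of the pathway lists, up to 3 genes per direction and experiment are named, taken by size of fold change among called genes that moved the same way in all 4 library pairs and averaged 50 reads or more in the higher group. The gene most like each member was sought among genes with a mean of at least 5 CPM.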

Additional observations from a re-analysis of the deposited data

Results flagged for a closer look

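The response to miR-137 in total RNA differed between U343 and U251 for 5 members by the edgeR interaction test. The differences, U343 minus U251 on the log2 scale, were −1.70 for EIF2C4 (0.40 in U251 and −1.29 in U343), 0.92 for EIF2C1 (−1.56 and −0.63), 0.68 for EIF2C3 (−0.72 and −0.03), −0.84 for DICER1 (−0.27 and −1.10) and −0.79 for TNRC6C (1.20 and 0.42). EIF2C4 was the only member whose response changed sign with a call in both lines. Cell line, cDNA kit and depth cannot be told apart in these values.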

How the results depend on the processing

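Counts of members called moved with the processing in some comparisons, and the cause was not tested. In U251 RNASeq (2 lower, 2 higher) 1 was higher with DESeq2 and 1 without the filter on low counts. For PABP-bound against total RNA in U251 (1 lower), 4 were lower with DESeq2, 2 with upper-quartile normalization and 0 without the filter. DESeq2 called 1 member lower for the assay interaction in U251, and upper-quartile normalization left 1 higher for the line interaction in RNASeq. The study's rule met 0 members for a rise in U251 RNASeq with TMM-scaled totals. With an odds ratio over 1.5 it met 1 member lower in U251 RIPSeq, 3 lower in U343 RNASeq, and 3 lower and 1 higher in U343 RIPSeq. The shares of all genes at this looser ratio are not given here, so these counts stand without a background.

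Over 8 pairs of groups the deviations of same-numbered libraries correlated at −0.24 to 0.42, highest for U343 RIPSeq control with miR-137, and not every pair exceeded 0.1, so the numbers were not taken to pair the libraries. With the replicate number as a block, 4 members were lower in U251 RNASeq and 3 for PABP-bound against total RNA in U251, and DGCR8 in U343 RNASeq lost its call (adjusted p = 0.0579). In U343 RIPSeq TNRC6B gained one (adjusted p = 0.0487), making 5 lower, with 4787 genes lower and 4858 higher against 4130 and 4234. For PABP-bound against total RNA in U343, EIF2C3 lost its call (0.0626), as did SND1 in U343 RNASeq (0.0802).

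Values near 0 changed sign. With upper-quartile normalization these were DGCR8 in U251 RNASeq (0.12), TNRC6B in U251 RIPSeq (−0.048), EIF2C3 in U343 RNASeq (0.0027) and TNRC6C for PABP-bound against total RNA in U251 (0.066). With DESeq2 they were EIF2C3 (−0.0092) and TNRC6B (−0.026) in U251 RIPSeq, TNRC6C between the lines (−0.014) and DICER1 for the assay interaction in U343 (−0.011). Without the filter they were TNRC6A in U343 RNASeq (−0.017), DGCR8 for PABP-bound against total RNA in U251 (−0.024) and DICER1 for the assay interaction in U343 (−0.0034), which was −0.00094 with the replicate block.

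In the fits without 1 library, the members lower and higher ranged from 2 to 5 and 1 to 3 in U251 RNASeq, 0 to 7 and 0 to 5 in U251 RIPSeq, and 0 to 6 and 0 to 1 in U343 RNASeq. In U343 RIPSeq they stayed at 4 and 1. For PABP-bound against total RNA, 0 to 7 were lower in U251 and 3 to 5 in U343, and 6 to 7 were lower between the lines. For the assay interaction 0 to 2 were lower and 0 to 4 higher in U251, and 0 to 1 higher in U343. For the line interaction 1 to 4 were lower and 0 to 2 higher in RNASeq, and 0 to 6 and 0 to 3 in RIPSeq. The study's rule met 0 to 1 higher in U251 RIPSeq, 1 to 2 lower in U343 RNASeq, and 0 to 2 lower and 0 to 1 higher in U343 RIPSeq. The number of all genes called moved in several of these fits too, so the member ranges are not read as a result about the members. Log2 values that crossed 0 ranged from −0.16 to 0.12 for DGCR8 in U251 RNASeq. In U251 RIPSeq they were −0.49 to 0.88 for EIF2C3, −0.20 to 0.32 for TNRC6B, −0.38 to 1.17 for DICER1 and −0.37 to 0.024 for XPO5. In U343 RNASeq they were −0.21 to 0.12 for EIF2C3 and −0.032 to 0.029 for TNRC6A, and in U343 RIPSeq −0.048 to 0.16 for EIF2C3, −0.23 to 0.031 for DGCR8 and −0.014 to 0.085 for XPO5. For PABP-bound against total RNA they were −0.044 to 0.27 for EIF2C2, −0.31 to 0.053 for TNRC6C and −0.10 to 0.30 for DGCR8 in U251, and −0.13 to 0.030 for EIF2C1 and −0.074 to 0.16 for EIF2C2 in U343. Between the lines they were −0.25 to 0.0090 for EIF2C4, −0.17 to 0.18 for TNRC6C and −0.031 to 0.24 for DGCR8. The interactions crossed 0 for DICER1 by assay in U343 (−0.10 to 0.076) and TNRC6B by line in RNASeq (−0.11 to 0.30).

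Over all genes, U251 RIPSeq gave 37 lower and 133 higher with edgeR, 534 and 589 with DESeq2, 5 and 54 without the filter and 273 and 529 with the block. U343 RNASeq gave 1254 higher with edgeR and 1958 with DESeq2. PABP-bound against total RNA in U251 gave 813 and 1042, with 1670 and 1945 in DESeq2, 84 and 16 without the filter and 2101 and 1935 with the block. The assay interaction gave 4 and 15 in U251 (395 and 309 in DESeq2) and 0 and 1 in U343 (278 and 122 in DESeq2). The line interaction in RIPSeq gave 195 and 329 (660 and 1192 in DESeq2, 54 and 86 with the block). Levels per kilobase and a search for seed matches were not run.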
